A study of Homo sapiens with 48 samples.

Results

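Expression of 10 genes of the replication stress checkpoint was described in PSN1, a human pancreatic cancer cell line, by RNAseq. The genes were ATR, ATRIP, TOPBP1, TIMELESS, CLSPN, CHEK1, CHEK2, WEE1, PKMYT1 and CDC25A. They were picked by symbol from a table of 20241 gene rows, and all 10 were present and above 0 in every library. PSN1 parental cells (genotype label WT, no treatment, Day 0) were compared with PSN1 cells that had acquired resistance to Talazoparib, an inhibitor of the DNA repair enzyme PARP. The resistant cells were raised by growth in rising concentrations of the drug. They were either maintained with 50 nM Talazoparib (TalaR-M, time label 4 months) or cultured in drug-free media (TalaR-DF, no treatment, labelled Day 0, 4 weeks after withdrawal by the study's account). By the study's account, PSN1 resistant cells had regained nearly the drug sensitivity of parental cells 4 weeks after withdrawal. TalaR-M and TalaR-DF are both called resistant below for their origin only, and TalaR-DF cells are not taken to be still resistant. Each of the 3 groups had 3 libraries, 9 of the 48 samples in the series, and the other samples were not analysed here. The labels do not say whether a resistant line is 1 clone or whether replicates were separate cultures, so the p-values measure the spread between these libraries, which may be technical.

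When a replication fork stalls, single-stranded DNA coated with RPA recruits the kinase ATR through its partner ATRIP, and TOPBP1 switches the kinase on. TIMELESS and CLSPN travel with the fork and help ATR to activate CHEK1, while CHEK2 answers mainly to ATM at DNA breaks. CHEK1 restrains the phosphatase CDC25A, and WEE1 and PKMYT1 place inhibitory phosphates on CDK1, so that cells do not enter mitosis with unfinished DNA. PARP inhibitors trap PARP1 on DNA and cause replication stress, and drugs against several of these kinases have been tested together with them.

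Expression was given as log2 CPM, the log2 of CPM (reads of a gene scaled by a factor for each library) as normalized by the authors. How the factor was set is not given in the sources used here. A read counted for 0.133 CPM in TalaR-M replicate 2 and for 0.0636 to 0.0790 CPM in the other libraries. Differences are log2 fold changes on that scale. A gene was said to rise or fall where the Benjamini-Hochberg adjusted p of limma, a linear model fitted over all 12471 genes tested, was under 0.05. Reads on genes above 0 ran from 12213605 to 14973847 in 8 libraries and came to 8387755 in TalaR-M replicate 2. The 10 genes were covered by 66 reads (CLSPN in TalaR-M replicate 2) to 2645 reads (TOPBP1 in TalaR-DF replicate 1).

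TalaR-M replicate 2 stood apart from the other libraries before any comparison. Over 10512 genes its Pearson correlation with TalaR-M replicates 1 and 3 was 0.780 in both cases, whereas those replicates correlated with each other at 0.994 and the libraries of the other groups at 0.993 to 0.997. Among the checkpoint genes, CLSPN was lower in this library than the mean of TalaR-M replicates 1 and 3 by a log2 difference of -2.38, TOPBP1 by -1.87, ATR by -1.76, WEE1 by -1.58 and TIMELESS by -1.44. ATRIP was higher by 0.58, CHEK2 by 0.37 and PKMYT1 by 0.06, and CHEK1 and CDC25A differed by -0.42 and -0.22. Within parental or TalaR-DF cells, no library of any of the 10 genes lay further than 0.304 from the mean of the others. The deviation moved with transcript length: over 10 length classes of equal size its median was 1.37 for the shortest genes and -1.45 for the longest, and CLSPN and ATR, with transcripts of 8512 and 8158 bases, belonged to the longest class. ATRIP did not follow its length class: with a transcript of 4576 bases and 58.6% GC it was 0.58 higher, while the median of its class was -0.94. Calls rest on all 9 libraries unless stated, and the counts and the values of the 10 genes are also given without TalaR-M replicate 2. Removing it also narrowed the shared estimate of spread, including that of comparisons it took no part in. The standard errors of the 10 log2 fold changes between TalaR-DF and parental cells ran from 0.12 to 0.57 with all libraries and from 0.05 to 0.11 without it.

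**Figure D1:**
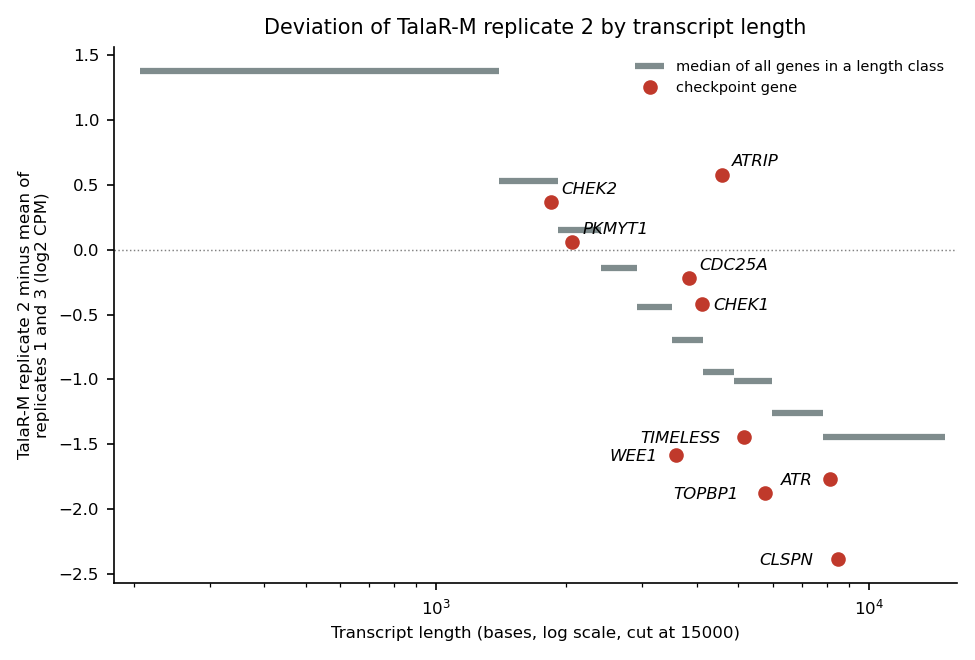
Log2 CPM of TalaR-M replicate 2 minus the mean of TalaR-M replicates 1 and 3 (y axis) against transcript length in bases (x axis, log scale), with red points for the 10 checkpoint genes and grey bars for the median of all genes in each of 10 length classes. The medians fall from 1.37 to -1.45, and 5 of the 10 checkpoint genes lie more than 1 below 0.

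The cells' identity was checked on marker genes. The 5 epithelial markers EPCAM, KRT7, KRT8, KRT18 and KRT19 were above 0 in all 9 libraries, KRT8 being the most abundant. Their summed CPM was 1078 to 1132 in parental, 949 to 1085 in TalaR-DF, and 1847, 5773 and 1701 in TalaR-M replicates 1, 2 and 3. Of 3 leukocyte markers (PTPRC, CD3E and CD14) CD3E was listed at 0 in all 9 libraries. CD14 was the most abundant except in TalaR-M replicate 1, where it was 1.24 log2 CPM and PTPRC 1.79. The 3 markers had a summed CPM of 11.1 to 14.7 in parental, 4.14 to 7.11 in TalaR-M and 1.18 to 2.55 in TalaR-DF. Of 4 endothelial markers VWF was listed at 0 in all libraries, and KDR, 3.82 to 3.99 log2 CPM in parental, was listed at 0 in all TalaR-DF libraries, where PECAM1 was the most abundant. The 4 markers summed to 28.8 to 30.9 CPM in parental, 5.91 to 9.06 in TalaR-M and 2.92 to 3.24 in TalaR-DF. Fibroblast markers COL1A2, PDGFRB, DCN and LUM differed between groups, with a summed CPM of 336 to 347 in parental, 10.8 to 21.0 in TalaR-M and 30.7 to 33.7 in TalaR-DF cells. COL1A2, a collagen chain, was 7.86 log2 CPM in parental replicate 1, 7.85 in replicate 2 and 7.88 in replicate 3, was listed at 0 in all 3 TalaR-M libraries and was 3.67 to 3.90 in TalaR-DF. DCN went the other way, being listed at 0 in all parental and TalaR-DF libraries and 1.73, 1.45 and 1.47 in TalaR-M. PTPRC, within the leukocyte sum, was listed at 0 in parental libraries, 1.79, 0 and 0.83 in TalaR-M and at most 0.05 in TalaR-DF. KRT8, KRT18 and KRT19 were close in parental and TalaR-DF libraries (9.18 and 9.17, 8.04 and 7.97, 5.80 and 5.83 log2 CPM on average), whereas KRT7 was lower in TalaR-DF (7.46 and 6.23) and EPCAM higher (4.87 and 5.44), both with no overlap. The part of the markers that differed between groups in the results below was not tested. In bulk RNA, fewer cells of a type and less RNA per cell cannot be told apart.

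In TalaR-DF cells 4 of the 10 checkpoint genes rose over parental cells with all 9 libraries in the fit: CDC25A, PKMYT1, CHEK1 and CHEK2. Over all genes tested 18.6% passed in either direction and 6.77% were higher. The median log2 fold change of the 10 genes was 0.65, and that of the 12471 genes tested was 0.01. All 10 passed once TalaR-M replicate 2 was left out, 9 higher and TIMELESS lower, where 62.9% of all genes passed, 32.5% higher and 30.4% lower. The same 10 passed in a fit of parental and TalaR-DF libraries alone, where 62.2% of all genes did. The libraries of the groups did not overlap for any of the 10 genes, 9 being higher and 1 lower in TalaR-DF, which was also true of 68.5% of all genes tested (35.3% higher and 33.2% lower). CDC25A and PKMYT1 passed with at least a 2-fold change, as did 9.73% of all genes, but both lay at that limit. Their log2 fold changes were 0.995 and 0.918 without TalaR-DF replicate 1 and 0.984 and 0.958 after median-ratio rescaling. They were 0.861 and 0.772 with 8 CPM added, and 1.12 and 1.26 once the trend on length and GC was removed. PKMYT1 was 0.942 without parental replicate 2, 0.966 without parental replicate 3 and 0.983 without TalaR-DF replicate 2.

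In TalaR-M cells 3 of the 10 genes rose over parental cells with all 9 libraries, namely CDC25A, CHEK2 and PKMYT1, where 23.6% of all genes passed and 10.3% were higher. None fell, and none of the 10 passed with a 2-fold change (13.3% of all genes did). The median log2 fold change was 0.22, against -0.09 over all genes, but it was -0.05 without TalaR-M replicate 1 and 0.02 without replicate 3. Leaving out TalaR-M replicate 2 gave 7 genes that were higher, adding ATR, ATRIP, CLSPN and CHEK1 to those 3, with a median of 0.41, where 60.2% of all genes passed and 30.2% were higher. TOPBP1, TIMELESS and WEE1 did not pass in either fit. CDC25A passed in every alternative fit (highest adjusted p = 0.0187), whereas CHEK2 and PKMYT1 did not: without parental replicate 3 CDC25A alone passed (CHEK2 adjusted p = 0.0597, PKMYT1 adjusted p = 0.0835, limma), without parental replicate 2 PKMYT1 did not pass (adjusted p = 0.0876), and a fit of parental and TalaR-M libraries alone also left CDC25A (13.8% of all genes passed). PKMYT1 also lost its call in TalaR-M once GC content and transcript length were corrected for (0.46, adjusted p = 0.168, range over the alternatives 0.000463 to 0.168).

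**Figure D2:**
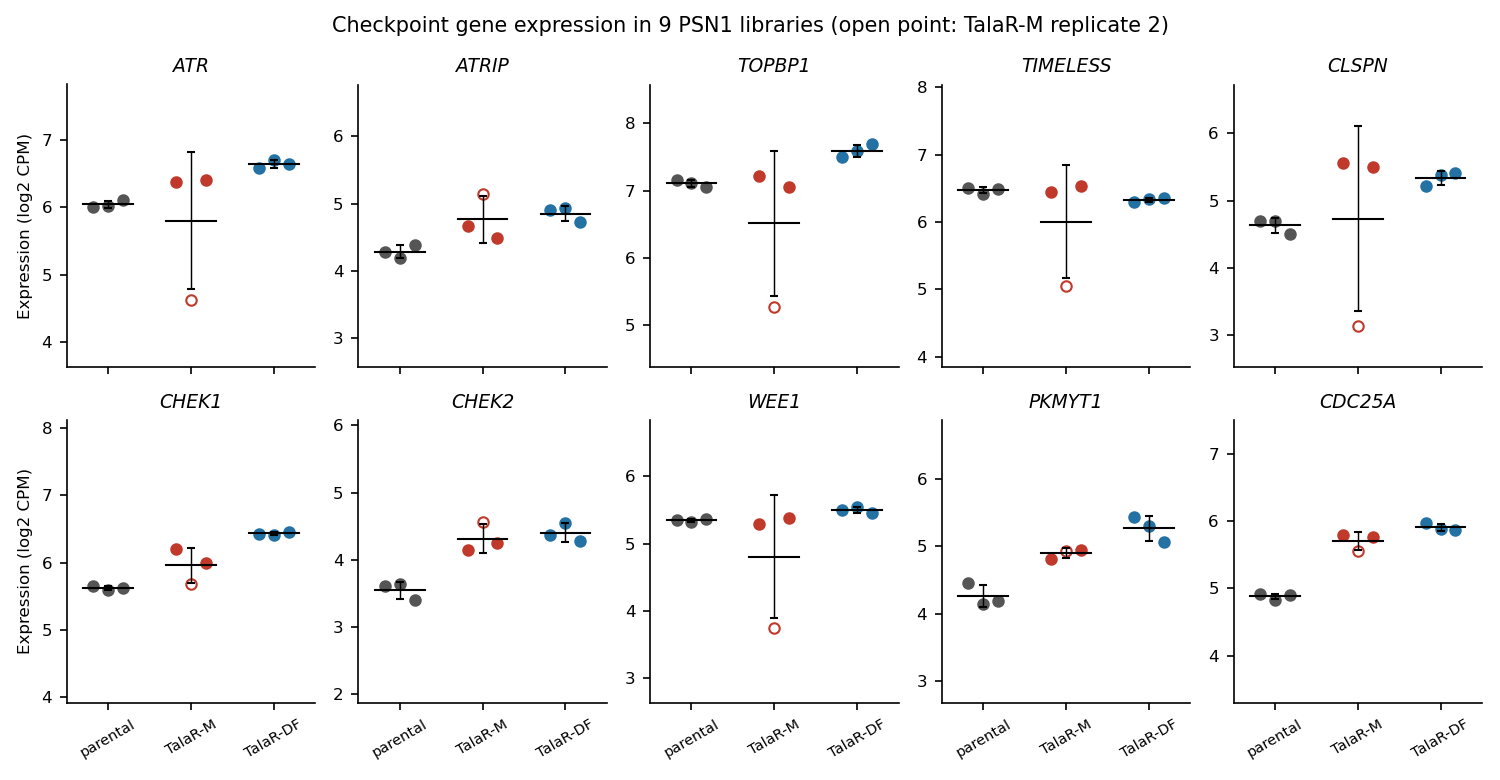
Log2 CPM (y axis) of each of the 10 checkpoint genes in the 3 parental, 3 TalaR-M and 3 TalaR-DF libraries (x axis), with points for libraries, an open point for TalaR-M replicate 2, and bars for the mean and SD of 3 libraries. All panels span the same number of log2 units; the TalaR-DF points lie above the parental points for 9 genes and below them for TIMELESS.

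The kinase itself and its activators were followed first. Positions are those of GRCh38 in GENCODE 44. ATR (chr3:142449007-142578733, minus strand), the master kinase of the pathway, was 6.01, 6.03 and 6.11 log2 CPM in parental replicates 1, 2 and 3, then 6.38, 4.63 and 6.41 in TalaR-M and 6.58, 6.70 and 6.64 in TalaR-DF. All TalaR-DF libraries lay above all parental libraries, and TalaR-M lay between these groups except for replicate 2, the lowest of the 9. The log2 fold change of TalaR-DF over parental was 0.59 (SE 0.43, adjusted p = 0.434, limma) with all libraries and 0.59 (SE 0.06, adjusted p = 3.13e-06, range over the alternatives 1.52e-06 to 0.756) without TalaR-M replicate 2. For TalaR-M over parental the sign depended on that library, with -0.24 (adjusted p = 0.689) when it was included and 0.34 (adjusted p = 0.000607, range 0.000607 to 1) when it was not.

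ATRIP (chr3:48446710-48467645, plus strand), the partner that brings ATR to RPA-coated DNA, was 4.28, 4.19 and 4.39 in parental, 4.66, 5.15 and 4.48 in TalaR-M and 4.91, 4.93 and 4.72 in TalaR-DF. Both resistant groups lay above every parental library. The difference from parental was 0.57 in TalaR-DF (SE 0.19, adjusted p = 0.0784, and 0.000236 without TalaR-M replicate 2, range 4.05e-05 to 0.234). In TalaR-M it was 0.48 with all libraries (SE 0.19, adjusted p = 0.106) and 0.29 without replicate 2 (SE 0.10, adjusted p = 0.0327, range 0.0327 to 0.264). Exons of ATRIP overlap those of TREX1 on the same strand, and TREX1, a DNA exonuclease, was listed at 0 in all 9 libraries, so how reads were divided between both genes is uncertain.

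TOPBP1 (chr3:133598175-133662380, minus strand), which activates ATR, was 7.15, 7.11 and 7.05 in parental, 7.21, 5.26 and 7.06 in TalaR-M and 7.51, 7.58 and 7.69 in TalaR-DF. TalaR-M replicates 1 and 3 lay close to the parental libraries, and the TalaR-DF libraries lay above all the others. TalaR-DF exceeded parental by 0.49 (SE 0.45, adjusted p = 0.568, limma), and by the same amount with SE 0.06 and adjusted p = 4.46e-05 (range 1.55e-05 to 0.964) without TalaR-M replicate 2. TalaR-M differed from parental by -0.59 with all libraries (adjusted p = 0.354) and by 0.03 without replicate 2 (95% interval -0.13 to 0.19).

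At the fork, TIMELESS and CLSPN differed in direction in TalaR-DF, but neither passed with all 9 libraries. The difference between both genes was not tested. TIMELESS (chr12:56416363-56449426, minus strand), of the fork protection complex, was 6.51, 6.42 and 6.49 in parental, 6.45, 5.04 and 6.53 in TalaR-M and 6.29, 6.34 and 6.36 in TalaR-DF. It was the 1 gene of the 10 whose TalaR-DF libraries lay below all parental libraries. The size was small, -0.14 (SE 0.35, adjusted p = 0.863, and SE 0.05, adjusted p = 0.0361 without TalaR-M replicate 2, range 0.0181 to 1). CLSPN (chr1:35720218-35769978, minus strand), encoding Claspin, the adaptor between ATR and CHEK1, was 4.70, 4.70 and 4.50 in parental, 5.56, 3.14 and 5.50 in TalaR-M and 5.22, 5.39 and 5.40 in TalaR-DF. Apart from TalaR-M replicate 2, with its 66 reads, every resistant library lay above every parental library. The log2 fold change in TalaR-DF was 0.70 (SE 0.57, adjusted p = 0.503, and 1.61e-05 without that library, range 9.13e-06 to 0.868). In TalaR-M it was 0.10 with all libraries (adjusted p = 0.913) and 0.89 without replicate 2 (adjusted p = 6.14e-06, range 6.14e-06 to 1).

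Both effector kinases lay above the parental libraries in both resistant groups. CHEK1 (chr11:125625163-125676255, plus strand), the kinase that ATR activates, was 5.65, 5.59 and 5.62 in parental, 6.20, 5.68 and 6.001 in TalaR-M and 6.43, 6.42 and 6.45 in TalaR-DF. The groups did not overlap, although TalaR-M replicate 2 (5.68) was close to the highest parental library (5.65). CHEK1 rose in TalaR-DF by 0.81 (SE 0.15, adjusted p = 0.00611, limma), a 1.76-fold change. In TalaR-M the difference was 0.34 (SE 0.15, adjusted p = 0.133), and 0.48 (adjusted p = 0.000105, range 6.6e-05 to 0.283) without replicate 2. STT3A, which shares exon sequence with CHEK1 on the same strand and encodes an oligosaccharyltransferase subunit, differed by 0.05 between TalaR-DF and parental (adjusted p = 0.917) and by 0.02 between TalaR-M and parental (adjusted p = 0.929). Without TalaR-M replicate 2 STT3A was 0.21 higher in TalaR-M (adjusted p = 0.0181), so it moved in the same direction as CHEK1 in that fit.

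CHEK2 (chr22:28687743-28742422, minus strand), the kinase downstream of ATM, was the least expressed of the 10 genes in parental libraries on the log2 CPM scale, without regard to length. It was 3.61, 3.64 and 3.40 in parental, 4.14, 4.56 and 4.24 in TalaR-M and 4.38, 4.55 and 4.28 in TalaR-DF. Every resistant library lay above every parental one, and the resistant groups overlapped each other. CHEK2 rose by 0.86 in TalaR-DF (SE 0.17, adjusted p = 0.00848) and by 0.77 in TalaR-M (SE 0.17, adjusted p = 0.0119, and 0.65 without replicate 2). CHEK2 has 7 named pseudogenes, and WEE1 has 2, so reads of both genes could be shared with near copies.

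Of the kinases that hold back CDK1, PKMYT1 rose in both resistant groups with all 9 libraries, though in TalaR-M not under every alternative, and WEE1 did not pass with all 9. PKMYT1 (chr16:2968024-2980479, minus strand), bound to membranes, was 4.45, 4.15 and 4.20 in parental, 4.81, 4.93 and 4.95 in TalaR-M and 5.43, 5.30 and 5.07 in TalaR-DF. The 3 groups did not overlap. PKMYT1 rose 2.00-fold in TalaR-DF (log2 1.00, SE 0.15, adjusted p = 0.00265, limma) and 1.55-fold in TalaR-M (log2 0.63, SE 0.15, adjusted p = 0.02, and 0.61 without replicate 2). WEE1 (chr11:9573670-9593457, plus strand), the nuclear kinase, was 5.35, 5.32 and 5.36 in parental, 5.28, 3.75 and 5.38 in TalaR-M and 5.49, 5.54 and 5.46 in TalaR-DF. Its TalaR-DF libraries lay just above the parental ones, by 0.15 (SE 0.39, adjusted p = 0.866, and SE 0.06, adjusted p = 0.0468 without TalaR-M replicate 2, range 0.0164 to 1). In TalaR-M the difference was -0.54 (adjusted p = 0.328), and -0.01 without replicate 2 with a 95% interval of -0.17 to 0.14.

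CDC25A (chr3:48157146-48188417, minus strand), the phosphatase that removes those inhibitory phosphates and that CHEK1 marks for degradation, showed the highest fold change of the 10 in TalaR-DF. It was 4.91, 4.83 and 4.90 in parental, 5.80, 5.56 and 5.76 in TalaR-M and 5.97, 5.88 and 5.87 in TalaR-DF. Both resistant groups lay above the parental libraries with no overlap. CDC25A rose by 1.03 in TalaR-DF (SE 0.12, 95% interval 0.75 to 1.31, adjusted p = 0.000654), a 2.04-fold change. In TalaR-M it rose by 0.83 (SE 0.12, 95% interval 0.55 to 1.10, adjusted p = 0.00174), a 1.77-fold change, and by 0.90 without replicate 2. The log2 difference of CDC25A minus WEE1, read here only between groups because it also carries the genes' lengths, was -0.46 ± 0.03 in parental and 0.41 ± 0.07 in TalaR-DF (SD, n = 3), and 0.51, 1.81 and 0.39 in TalaR-M replicates 1, 2 and 3. CDC25A minus PKMYT1 was 0.61 ± 0.13 in parental, 0.64 ± 0.15 in TalaR-DF, and 0.99, 0.62 and 0.82 in TalaR-M replicates 1, 2 and 3.

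**Figure D3:**
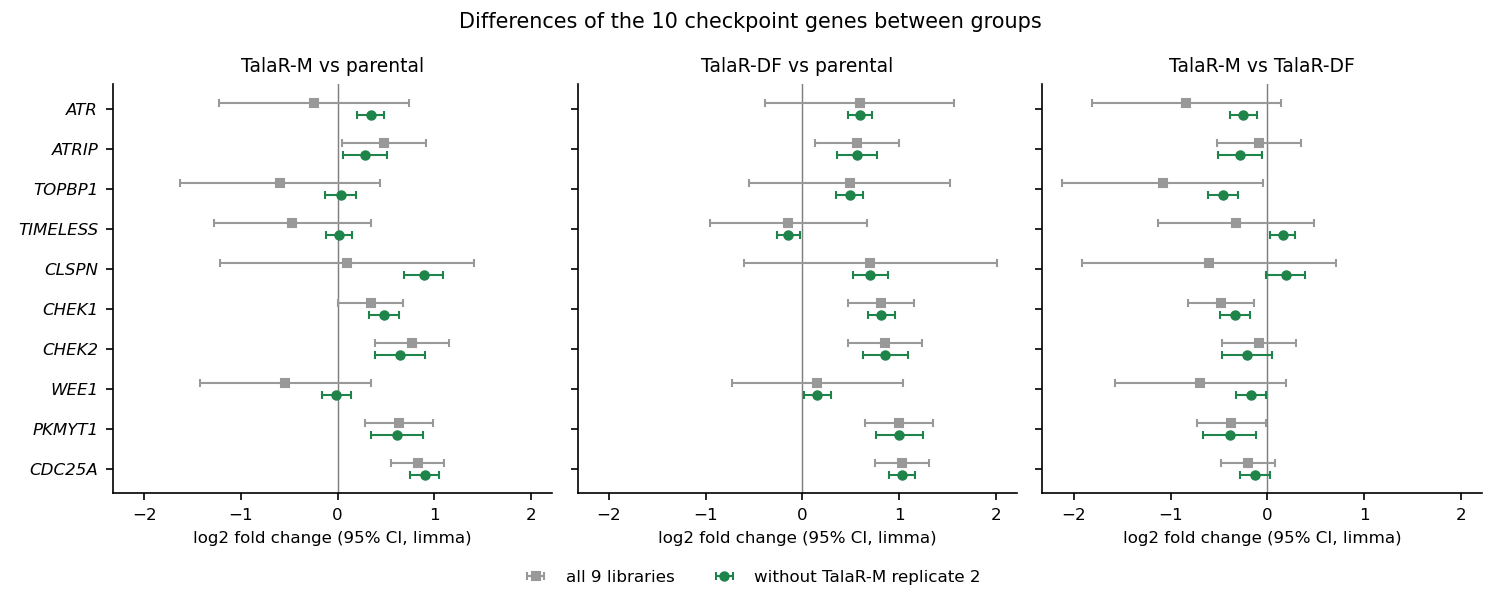
Log2 fold change (x axis) of the 10 checkpoint genes (y axis) in the 3 comparisons, with bars for the 95% confidence interval of limma; grey squares use all 9 libraries and green circles leave out TalaR-M replicate 2. In TalaR-DF against parental the estimates are the same in both fits, from -0.14 (TIMELESS) to 1.03 (CDC25A), and the intervals are narrower without that library.

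Between TalaR-M and TalaR-DF none of the 10 genes passed with all 9 libraries (limma), where 12% of all genes did and 4.25% were lower in TalaR-M. An unadjusted p under 0.05 was found for 3 of 10, but the share of all genes at that limit is not given. All 10 estimates were below 0, from -0.09 to -1.08. Without TalaR-M replicate 2, 6 genes passed, where 48.8% of all genes did, 25.3% lower and 23.5% higher in TalaR-M. ATR (-0.25), ATRIP (-0.28), TOPBP1 (-0.46), CHEK1 (-0.34) and PKMYT1 (-0.39) were lower in TalaR-M, and TIMELESS (0.16) was higher, with adjusted p-values from 0.000311 (TOPBP1) to 0.0492 (TIMELESS). CLSPN differed by 0.19 in that fit (adjusted p = 0.109), CHEK2 by -0.21 (0.163), WEE1 by -0.17 (0.065) and CDC25A by -0.13 (0.151). With TalaR-M taken as the mean of replicates 1 and 3, the order TalaR-DF, TalaR-M, parental from high to low held for 7 genes: ATR, ATRIP, TOPBP1, CHEK1, CHEK2, PKMYT1 and CDC25A. This is an order of means, and the share of all genes in it is not given. TOPBP1 in TalaR-M differed from parental by 0.03 with overlapping libraries, and CHEK2 and CDC25A did not pass between the resistant groups. CLSPN was highest in TalaR-M and TIMELESS was lowest in TalaR-DF. WEE1 was lowest in TalaR-M, but by only -0.01 from parental, with overlap. The comparisons share libraries, so they are not independent of each other.

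By replicate number, TalaR-DF exceeded parental in 9 of the 10 genes for each of the numbers 1, 2 and 3, with a median difference of 0.60, 0.71 and 0.74. TalaR-M exceeded parental in 8 genes for number 1, 5 for number 2 and 10 for number 3, with medians of 0.38, -0.64 and 0.34. The shares of all genes are not given, and the TalaR-DF counts only restate that its libraries did not overlap those of parental cells. Libraries of the same number were not treated as pairs. Their deviations from the group means did not move together, but this cannot show whether those samples were handled together.

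Levels were compared between genes on the scale of log2 CPM per kilobase of transcript. In parental cells TOPBP1 was the highest at 4.58, followed by TIMELESS (4.11), CHEK1 (3.57), WEE1 (3.50), PKMYT1 (3.22), ATR (3.02), CDC25A (2.94), CHEK2 (2.66), ATRIP (2.09) and CLSPN (1.54), and the libraries of no neighbours in this order overlapped. In TalaR-DF cells TOPBP1 (5.07) still led and ATRIP (2.66) and CLSPN (2.25) were still lowest. CHEK1 (4.39), PKMYT1 (4.22) and CDC25A (3.97) stood next to TOPBP1, above WEE1 (3.66), and TIMELESS (3.96) overlapped CDC25A. CHEK1 and PKMYT1 overlapped, as did PKMYT1 and CDC25A, WEE1 and ATR (3.61), and ATR and CHEK2 (3.52).

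The promoters of the genes were read because 9 of the 10 were higher in TalaR-DF cells. RefSeq promoters (GRCh38.p14, 250 bases before to 50 after a RefSeq start site) matched 8 of the 10 genes; WEE1 and PKMYT1 had no entry. Where a gene had several entries the entry listed first was used. Both strands were searched for TTTNNCGC, a relaxed core of E2F sites, for CCAAT, and for TTTGAA, the core of the cell cycle homology region. TTTNNCGC was found in 4 of 8 promoters (CDC25A, CHEK2, CLSPN and TOPBP1) and in 6.9% of 27305 promoters (10.5% of the 9563 that belonged to tested genes). CCAAT was found in 6 of 8 and in 35.7% of all (36.3% for tested genes), and TTTGAA in 0 of 8 and in 15.4% of all (9.55% for tested genes). The 4 promoters that held TTTNNCGC or its reverse GCGNNAAA are shown for their match, and TIMELESS is shown as the gene that was lower in TalaR-DF; CHEK1, which also rose there, held no match; capitals mark the match, which overlapped no CCAAT.
CDC25A, chr3:48188368-48188667, minus strand, match from position -44: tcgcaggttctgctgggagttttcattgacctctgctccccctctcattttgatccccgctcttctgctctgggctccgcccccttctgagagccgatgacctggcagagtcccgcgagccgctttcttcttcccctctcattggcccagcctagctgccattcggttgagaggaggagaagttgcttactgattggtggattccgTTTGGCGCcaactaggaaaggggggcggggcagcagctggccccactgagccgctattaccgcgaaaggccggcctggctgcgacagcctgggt
CHEK2, chr22:28741771-28742070, minus strand, match from position -9: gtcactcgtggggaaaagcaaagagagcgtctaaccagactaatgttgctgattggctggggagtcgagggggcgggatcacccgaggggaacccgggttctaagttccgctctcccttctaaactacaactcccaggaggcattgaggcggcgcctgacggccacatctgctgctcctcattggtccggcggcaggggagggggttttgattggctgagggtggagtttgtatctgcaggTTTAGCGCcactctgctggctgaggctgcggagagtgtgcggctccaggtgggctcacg
CLSPN, chr1:35769929-35770228, minus strand, match from position -5: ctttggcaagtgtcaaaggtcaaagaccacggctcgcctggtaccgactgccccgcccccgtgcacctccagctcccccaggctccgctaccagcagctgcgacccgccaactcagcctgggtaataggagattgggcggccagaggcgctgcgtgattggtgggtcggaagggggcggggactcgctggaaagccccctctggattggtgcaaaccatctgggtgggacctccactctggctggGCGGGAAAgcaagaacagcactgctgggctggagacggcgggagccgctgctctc
TOPBP1, chr3:133661892-133662191, minus strand, match from position -7: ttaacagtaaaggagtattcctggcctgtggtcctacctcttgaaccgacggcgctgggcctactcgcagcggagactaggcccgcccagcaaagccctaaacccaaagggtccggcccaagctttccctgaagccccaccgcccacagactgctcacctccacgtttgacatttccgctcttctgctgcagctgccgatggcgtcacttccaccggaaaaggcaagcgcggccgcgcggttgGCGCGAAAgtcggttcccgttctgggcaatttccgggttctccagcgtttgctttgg
TIMELESS, chr12:56449377-56449676, minus strand, no match: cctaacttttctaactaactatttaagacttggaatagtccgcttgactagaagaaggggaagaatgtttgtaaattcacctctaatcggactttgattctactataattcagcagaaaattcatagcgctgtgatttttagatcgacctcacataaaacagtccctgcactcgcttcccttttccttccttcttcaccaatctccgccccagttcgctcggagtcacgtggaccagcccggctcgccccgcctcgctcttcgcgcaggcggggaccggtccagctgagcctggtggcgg
Positions are counted from the RefSeq start site, the base before it being -1. For CHEK2, TOPBP1 and CHEK1 (window chr11:125625979-125626278, not shown) this site lies inside the gene as GENCODE 44 bounds it. Those windows lie within the coordinates given above, so the lack of a match in CHEK1 does not cover the GENCODE start of that gene. In CHEK2 and CDC25A the match read TTTAGCGC and TTTGGCGC on the strand of the gene, and in CLSPN and TOPBP1 it read GCGGGAAA and GCGCGAAA, the reverse orientation. A match is a description of letters, and binding to these promoters was not measured here.

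The genes whose pattern was most like that of a checkpoint gene were sought for the 3 with the widest range of group means, by Pearson's r over 8 libraries (without TalaR-M replicate 2) among 9519 genes of at least 3 log2 CPM on average. For CDC25A they were FBXL16 (r = 0.9996), BAG3 (0.998) and RRP7A (0.998). FBXL16, an F-box protein gene, rose from 2.45 log2 CPM in parental to 5.84 in TalaR-DF. PKMYT1 was followed by LIG1, the replicative DNA ligase (0.990), NCAPH2, a condensin II subunit (0.989), and DCAF4 (0.987). CLSPN was followed by GAS2L3 (0.995), UTP14C (0.993) and AK3 (0.993). With 3 groups in 8 libraries many genes come near such values, 5.31% of the 9519 genes being above 0.95 for CDC25A, 3.16% for CLSPN and 1.31% for PKMYT1.

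Other genes of the pathway were counted from lists, to be read against the shares over all genes: 18.6% passed in TalaR-DF and 23.6% in TalaR-M against parental, and 62.9% and 60.2% without TalaR-M replicate 2. Of 14 genes for sensing of single-stranded DNA and clamp loading, 3 rose and 0 fell in TalaR-DF against parental (8 and 0 without TalaR-M replicate 2; median 0.35), which is 21.4% and 57.1% of the list. TIPIN, the partner of TIMELESS, rose by 0.91, the clamp loader subunit RFC4 by 0.80 and the RPA subunit RPA2 by 0.66. TIPIN was 3.96, 3.98 and 4.11 in parental, 4.45, 4.49 and 4.18 in TalaR-M and 4.92, 4.94 and 4.92 in TalaR-DF, above all parental libraries although TIMELESS was below them. In TalaR-M 3 rose (7 higher and 1 lower without replicate 2), namely RPA2 (0.87), the clamp subunit RAD1 (0.67) and RHNO1 (0.60), a partner of the clamp. Between TalaR-M and TalaR-DF, TIPIN alone passed with all libraries, by -0.56 (adjusted p = 0.0375), beside 12% of all genes, and 7 of 14 passed without replicate 2, 2 higher and 5 lower in TalaR-M (48.8% of all genes passed).

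Of 10 genes for CDKs and their regulators, 3 rose and 1 fell in TalaR-DF (6 and 2 without TalaR-M replicate 2), and 3 rose in TalaR-M (8 without). These were 40% and 30% of the list with all libraries, beside 18.6% and 23.6% of all genes. Without that library they were 80% in both comparisons, beside 62.9% and 60.2% of all genes. CDK1, the kinase held back by WEE1 and PKMYT1, was 6.26, 6.16 and 6.29 in parental, 7.17, 6.68 and 6.99 in TalaR-M and 7.20, 7.16 and 7.29 in TalaR-DF. It rose by 0.98 in TalaR-DF (adjusted p = 0.0023) and by 0.71 in TalaR-M (adjusted p = 0.00943). CCNE1, the cyclin of S phase entry, rose by 0.74 in TalaR-DF and 0.65 in TalaR-M, and the mitotic cyclin CCNB1 rose by 0.64 in TalaR-DF and 0.86 in TalaR-M. CDKN1A, the CDK inhibitor p21, was 2.62, 2.18 and 2.43 in parental, 2.20, 1.64 and 1.51 in TalaR-M and 0.67, 0.22 and 0.79 in TalaR-DF. It fell by 1.85 in TalaR-DF (adjusted p = 0.000999) and was 1.22 higher in TalaR-M than in TalaR-DF (adjusted p = 0.013), as was CDC25B by 0.57 (adjusted p = 0.0252).

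Among 11 genes for turnover of checkpoint proteins, PLK1 rose by 0.68 in TalaR-DF (adjusted p = 0.00684) and no other passed (8 higher without TalaR-M replicate 2), or 9.09% and 72.7% of the list beside 18.6% and 62.9% of all genes. In TalaR-M against parental CUL4A, a ubiquitin ligase scaffold, alone passed, or 9.09% of the list beside 23.6% of all genes. CUL4A fell by 0.98 with all libraries (adjusted p = 0.0266) and differed by -0.65 without replicate 2. In that fit 2 genes of the list were higher and 3 lower, or 45.5% beside 60.2% of all genes. Against TalaR-DF, TalaR-M was lower in USP7 (-1.26), CUL4A (-1.15) and PLK1 (-0.66), where 4.25% of all genes were lower, and 5 of 11 were lower without replicate 2, where 25.3% of all genes were. The kinase PLK1, which helps cells to leave the checkpoint, was 7.13, 7.01 and 6.97 in parental, 7.19, 6.96 and 7.02 in TalaR-M and 7.80, 7.58 and 7.77 in TalaR-DF, so TalaR-M overlapped parental. None of 5 genes of the ATM branch passed in any comparison with all libraries (limma). In TalaR-DF against parental, without TalaR-M replicate 2, 3 were higher (MDC1 0.45, RAD50 0.36 and NBN 0.31) and TP53BP1 was lower (-0.27), beside 62.9% of all genes that passed. In that fit TP53BP1 was also lower in TalaR-M than in parental (-0.60, adjusted p = 3.28e-06), and 3 of 5 were lower in TalaR-M than in TalaR-DF, as were 25.3% of all genes. MRE11 was not analysed here.

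Genes of proliferation and S phase were counted as well. Of 17, 8 rose in TalaR-DF (17 without TalaR-M replicate 2; median 0.63) and 9 in TalaR-M (14 without; median 0.66). These were 47.1% and 52.9% of the list, beside 18.6% and 23.6% of all genes. Without that library they were 100% and 82.4%, beside 62.9% and 60.2% of all genes. E2F2, a transcription factor of S phase entry, was 1.74, 1.49 and 1.56 in parental, 3.71, 3.65 and 3.64 in TalaR-M and 3.06, 2.92 and 2.78 in TalaR-DF, with no overlap between groups. It rose by 2.07 in TalaR-M (adjusted p = 2.1e-05) and 1.32 in TalaR-DF (adjusted p = 0.00036). E2F1 rose by 1.44 in TalaR-M and 0.99 in TalaR-DF, TYMS, the thymidylate synthase, rose by 1.37 in TalaR-M, and MKI67, the Ki-67 antigen, by 1.10 in TalaR-DF. The median of the 10 checkpoint genes was 0.65 in TalaR-DF beside 0.63 for the 17 proliferation genes, and 0.22 in TalaR-M (0.41 without replicate 2) beside 0.66. Between TalaR-M and TalaR-DF the medians with all libraries were -0.42 for the checkpoint genes and -0.16 for the proliferation genes, of which 2 passed higher and 2 lower, or 23.5% beside 12% of all genes. Without replicate 2 they were -0.23 and 0.05, with 10 of the 17 proliferation genes above 0. The part that a different share of cycling cells had in the checkpoint gene results was not tested.

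**Figure D4:**
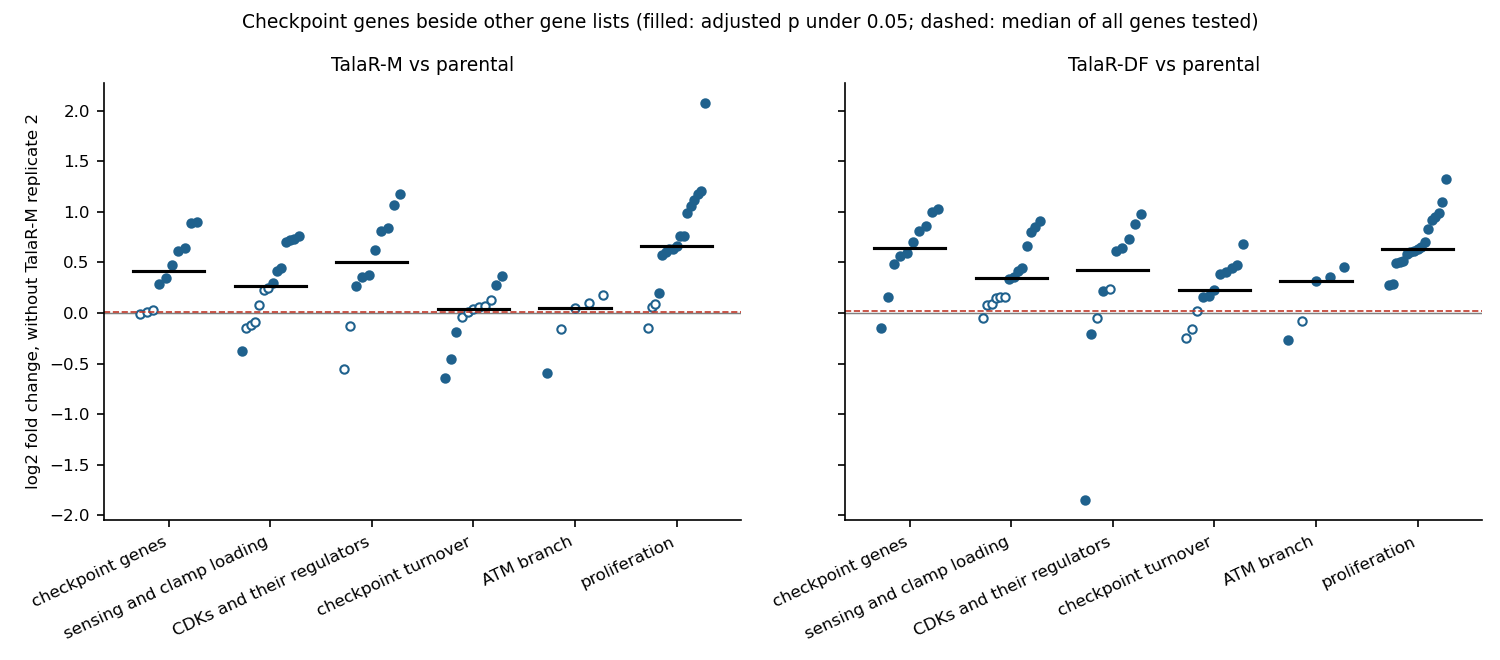
Log2 fold change (y axis) of each gene in 6 gene lists (x axis) for TalaR-M and TalaR-DF against parental, without TalaR-M replicate 2. Each point is a gene, filled where its adjusted p was under 0.05, black bars are list medians and the dashed line is the median of all genes tested; in TalaR-DF the medians of the checkpoint and proliferation lists are 0.65 and 0.63, and in TalaR-M they are 0.41 and 0.66.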

How the data were processed

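RNA from 9 PSN1 cell samples was sequenced by the authors (stranded poly(A) libraries, paired reads of 150 bases). The submitters' processing notes name build hg38; the counting tool is not given in the sources used here. The deposited values are log2 CPM with values under 0 listed as 0; this was read from the values, since undoing the log2 and taking off a prior count of 1 read gave whole reads for 100% of values under 50 CPM (tolerance 0.05 reads). Genes above 0 in at least 3 libraries (12471 of 20241) were fitted with limma 3.58.1 (R 4.3.3, trend), 3 groups in 1 model, with Benjamini-Hochberg adjustment. An exact permutation test of 3 against 3 libraries cannot go below p = 0.1. The script was tested on simulated data, which held no library that deviated with transcript length as TalaR-M replicate 2 does. Lengths and overlaps came from GENCODE 44. The 10 genes and all lists were chosen with earlier results of these data known. All 10 genes are named; from each other list up to 3 genes, those that passed without overlap and had the largest change, otherwise the largest change; pattern neighbours by highest r; genes sharing exons on the same strand. Alternatives covered filters, pseudocounts, scaling, weights, samples, the replicate block, leave-one-out and a length and GC trend. A planned marker gene is not reported here.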

Additional observations from a re-analysis of the deposited data

How the results depend on the processing

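In TalaR-DF against parental, the directions of the 10 genes and the calls of CDC25A, PKMYT1, CHEK1 and CHEK2 held under all 19 alternative fits, and in 20 cases of a gene under a setting a further gene passed. The number of genes passing was 10 in a fit of those 2 groups alone (62.2% of all genes passed) and 2 with a 2-fold change (9.73%). It was 4 to 10 when each library was left out in turn, 10 being without TalaR-M replicate 2 (62.9% of all genes). With array weights it was 8, and 8 after removing each library's trend on length and GC. For those last 2 settings no share of all genes is given, so their counts cannot be read against it. The median of 0.65 became 0.55 with 8 CPM added, 0.60 after median-ratio rescaling, 0.75 after the length and GC trend, and 0.62 to 0.69 in the leave-one-out fits.

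In TalaR-M against parental, 3 genes passing became 1 in the fit of those 2 groups alone (13.8% of all genes) and 0 with a 2-fold change (13.3%). They became 1 to 7 when each library was left out, 7 being without TalaR-M replicate 2 (60.2% of all genes). With array weights 7 passed, after the length and GC trend 5, and by unadjusted p 5. For these last settings no share of all genes is given, so the counts cannot be read against it. The median of 0.22 became 0.39 with array weights, 0.52 after the length and GC trend, and -0.05 to 0.41 in the leave-one-out fits, the sign turning without TalaR-M replicate 1. Directions turned for ATR (0.33 with array weights, 0.26 after the length and GC trend), TOPBP1 (0.0041 with array weights) and TIMELESS (0.017 with array weights). The leave-one-out ranges crossed 0 for ATR (-0.55 to 0.34), TOPBP1 (-0.95 to 0.030), TIMELESS (-0.73 to 0.01) and CLSPN (-0.31 to 0.89); for the first 3 it was TalaR-M replicate 2 whose removal turned the sign, and for CLSPN replicate 1 or 3. Between TalaR-M and TalaR-DF, 0 genes passing became 0 to 6 when each library was left out, 6 being without TalaR-M replicate 2 (48.8% of all genes). With array weights 4 passed, after the length and GC trend 3, and by unadjusted p 3, again with no share of all genes to read them against. Signs turned for ATRIP (0.066) and CHEK2 (0.065) after median-ratio rescaling, for TIMELESS (0.16) and CLSPN (0.17) with array weights, and in the leave-one-out fits for TIMELESS (-0.58 to 0.16), CLSPN (-1.02 to 0.19) and ATRIP (-0.28 to 0.053). Median-ratio rescaling moved the median of all genes in TalaR-M against parental from -0.091 to 0.014. The cause of these changes was not tested.

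With the replicate number as a replicate block, 3 genes passed for TalaR-M over parental, 4 for TalaR-DF over parental and 0 between the resistant groups, the same counts as without the block. The share of all genes passing with the block is not given. Correlations of deviations between same-numbered libraries ran from -0.47 to 0.24, which cannot show whether equal numbers mark samples that were handled together. TalaR-M replicate 2 has the fewest reads in total.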
